A study of Rattus norvegicus with 6 samples.

Results

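The genes described here encode the enzymes that cut the extracellular matrix and the proteins that hold those enzymes in check: the matrix metalloproteinases (MMPs), their tissue inhibitors (TIMPs) and the membrane-anchored inhibitor Reck, the membrane proteases of the ADAM family, and the secreted ADAMTS proteases with the ADAMTS-like (ADAMTSL) proteins. They were taken by gene symbol from the deposited table of lung expression, and 79 of its 19828 entries matched. Of these, 59 reached a value of 1 or more in 3 or more of the 6 libraries and were compared between genotypes: 13 MMPs, 5 inhibitors (Timp1 to Timp4 and Reck), 18 ADAMs and 23 ADAMTS or ADAMTSL genes. Genes were matched by symbol alone, but the families were chosen with earlier results of these data known. None of the 59 genes reached the minimum in libraries of 1 genotype alone (0 such genes).

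The samples were total lung tissue of Sprague-Dawley rats. One group carried the knockout of Ahr, the gene of the aryl hydrocarbon receptor (Ahr-KO, 3 libraries; written Ahr-/- in the design text), and the other was wild type (WT, 3 libraries). Every rat of both groups was labelled with the Sugen-Hypoxia treatment and day 56, so there is no untreated lung in this comparison and both groups share the treatment. Sugen, an inhibitor of VEGF receptors, and low oxygen are combined in rats to model pulmonary arterial hypertension. The labels give neither the age and sex of the rats nor the position of the Ahr edit, and nothing in them says that each sample is its own animal. The p-values therefore cover only the spread among these samples, part of which may be technical.

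As background, MMPs, ADAMs and ADAMTS proteases share a catalytic zinc ion and are made as inactive precursors. MMPs cut collagens, elastin and basement membrane, ADAM10 and ADAM17 release the outer parts of membrane proteins such as growth factors and cytokine receptors, and ADAMTS proteases process procollagens and cut large proteoglycans and von Willebrand factor. TIMPs bind the active enzymes one to one, and TIMP3, which stays attached to the matrix, also inhibits ADAM17 and the ADAMTS proteoglycanases. In pulmonary arterial hypertension the walls of small lung arteries thicken and their matrix is rebuilt, which is why these enzymes have been studied in that disease.

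The unit of all levels is a read count, estimated and normalised, for each gene symbol in bulk RNA-seq with 1 library per sample. Libraries are numbered 0, 1 and 2 within a genotype, as in the table. Depth, estimated from the recurring step between values, was 14.2 to 23.6 M reads in the Ahr-KO libraries and 12.9 to 21.9 M reads in the WT libraries, and library 2 was the shallowest of each group. Ahr itself had 2399, 3923 and 3575 in the Ahr-KO libraries, against 2940.0, 2860.4 and 3395 in the WT libraries. The groups overlap, and since the position of the edit is not given, this value does not check the genotype. The AHR target gene Cyp1a1 lay between 0.826 and 10.5 in the Ahr-KO libraries and between 23512 and 37694 in the WT libraries. All 10 listed lung epithelial markers were read in these libraries, with surfactant protein C (Sftpc) between 299807 and 345211 in the Ahr-KO libraries and between 230761 and 285880 in the WT libraries. Values are not scaled to transcript length, so levels are compared between groups and not between genes. Changes are differences of log2(value + 1), Ahr-KO minus WT, ± SE. Tests are limma with a mean-variance trend, fitted to all 15386 tested genes with Benjamini-Hochberg adjustment over all of them and a threshold of 0.05.

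Of the 59 genes, 11 differed between the genotypes. Timp3, Adamtsl4 and Adam1a were higher in the Ahr-KO lungs, and Adamts4, Adam12, Adamts14, Adamtsl1, Adamts1, Timp1, Mmp19 and Mmp16 were lower. This is 18.6% of the family members, against 10.8% of all tested genes. Lower calls made up 13.6% of the members (8 genes) against 6.26% of all tested genes, and higher calls 5.08% (3 genes) against 4.50%. The 3 Ahr-KO values and the 3 WT values did not overlap for 25 of the members (42.4%), against 34.3% of all tested genes; 16 of the 25 (27.1% of the members) were lower in Ahr-KO, against 17.4% of all tested genes, and 9 (15.3%) were higher, against 17.0%. The median change was -0.32 over the members and 0.01 over all tested genes. By sign, 39 changes of members were negative and 20 positive, against 7537 negative and 7849 positive over all tested genes. With values rescaled to equal library totals, 14 members were called, 2 higher and 12 lower, while the calls over all 15386 genes shifted the same way, to 448 higher and 1314 lower, against 692 higher and 963 lower without that rescaling. By family, 2 of 13 MMPs were called, both lower, with a median change of -0.36. Among the ADAMTS and ADAMTSL genes 4 of 23 were lower and 1 higher (median -0.41). In the ADAM family 1 of 18 was lower and 1 higher (median 0.04), and of the 5 inhibitors 1 was lower and 1 higher (median -0.12). In whole lung, fewer cells of a type and less RNA per cell cannot be told apart.

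**Figure D1:**
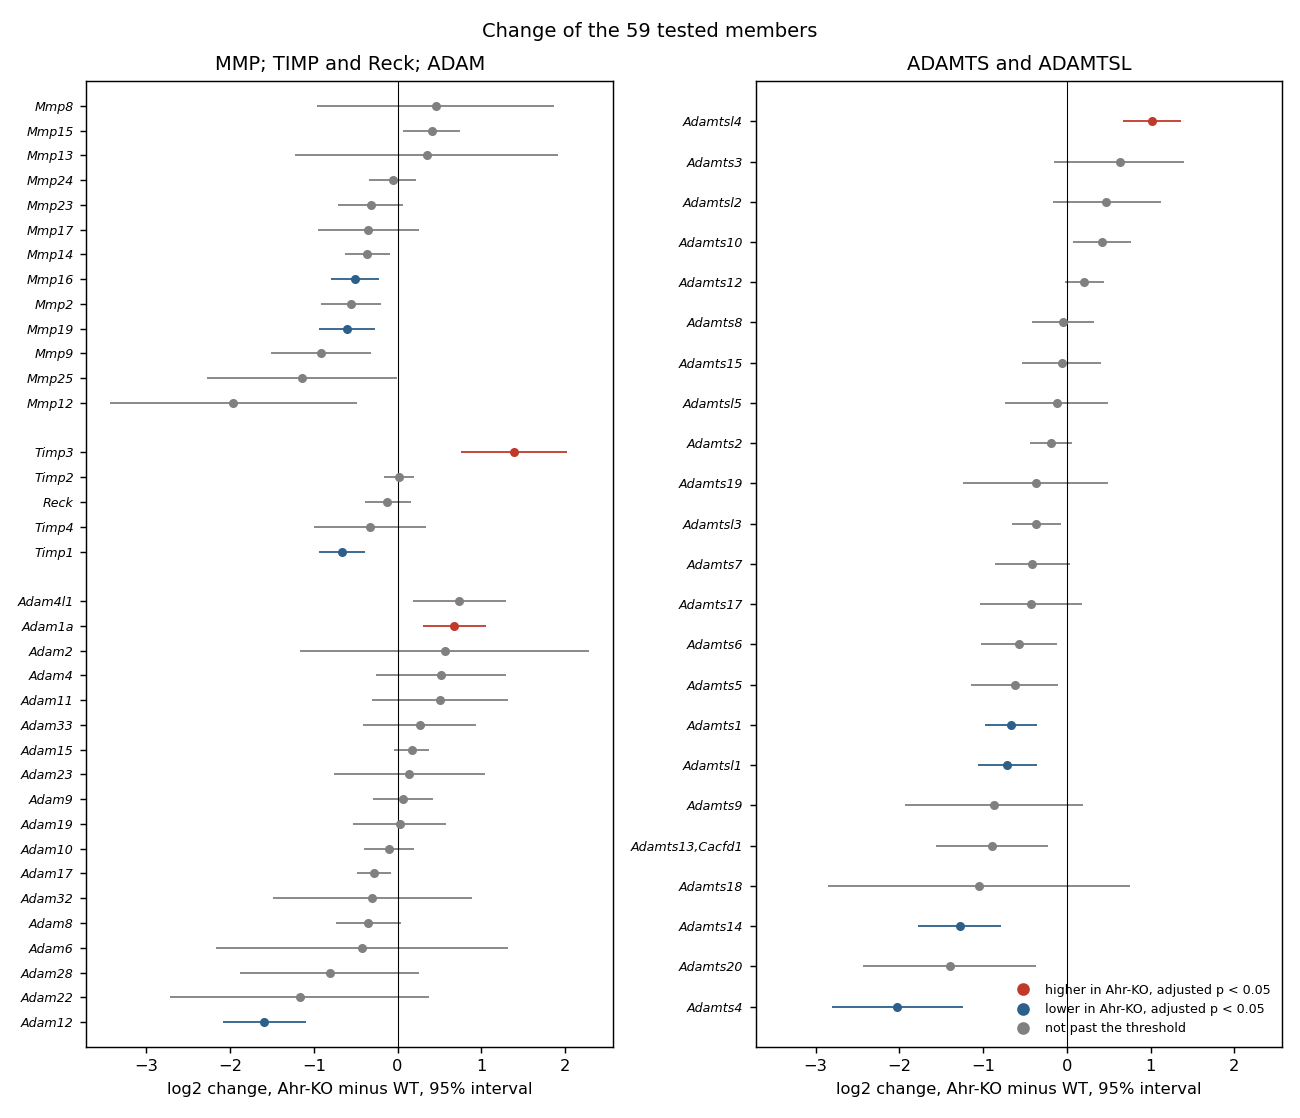
Change of each of the 59 tested genes, as the difference of log2(value + 1) between Ahr-KO and WT (horizontal axis) with its 95% interval, grouped by family down the page. Red points are higher and blue points lower in Ahr-KO at an adjusted p under 0.05, and grey points did not pass. The 3 red points are Timp3, Adamtsl4 and Adam1a, and the ADAMTS panel has 18 of its 23 points left of 0. Over all tested genes, 7537 changes were negative and 7849 positive.

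The calls differed in how far they depended on single libraries and on the processing. Adam12, Adamts14 and Adamtsl4 passed the threshold in all 16 other fits, 6 of which left out 1 library each. Adamts4 passed in 15 and Timp1 in 14. Timp3 passed in 11, Adamts1 in 10, Adamtsl1 in 9, Adam1a in 8, Mmp19 and Mmp16 in 7 each. Without Ahr-KO library 2 the number of called members was 3, and it was 5 without Ahr-KO library 1. Leaving out WT library 1 gave 6, as did leaving out both libraries numbered 2. Each of the 11 kept its direction in every one of these fits.

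The promoters of the called genes with the largest changes are printed here because AHR binds DNA through a short core, GCGTG, as a dimer with ARNT. The same letters are one form of the core bound by the hypoxia-inducible factors. The sequences run from 250 bases before to 50 bases after the annotated start, from RefSeq on the build GRCr8, which differs from the build rn6 of the deposited values, and capitals mark GCGTG on either strand (CACGC on the printed one).
Timp3 (chr7:19459509-19459808, minus strand): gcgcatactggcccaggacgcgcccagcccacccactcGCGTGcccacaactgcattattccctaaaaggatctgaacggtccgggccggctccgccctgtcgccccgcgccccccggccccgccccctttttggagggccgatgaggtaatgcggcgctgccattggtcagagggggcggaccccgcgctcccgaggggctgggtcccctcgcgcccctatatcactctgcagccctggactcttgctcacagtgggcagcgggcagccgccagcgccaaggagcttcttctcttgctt
Adamtsl4 (chr2:185935747-185936046, minus strand): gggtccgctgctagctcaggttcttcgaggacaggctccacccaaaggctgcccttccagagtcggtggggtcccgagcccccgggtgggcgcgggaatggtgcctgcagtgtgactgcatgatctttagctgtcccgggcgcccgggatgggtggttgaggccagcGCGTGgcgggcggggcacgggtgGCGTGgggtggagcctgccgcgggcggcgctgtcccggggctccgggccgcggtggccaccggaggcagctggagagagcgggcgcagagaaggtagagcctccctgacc
Adam12 (chr1:198443631-198443930, minus strand): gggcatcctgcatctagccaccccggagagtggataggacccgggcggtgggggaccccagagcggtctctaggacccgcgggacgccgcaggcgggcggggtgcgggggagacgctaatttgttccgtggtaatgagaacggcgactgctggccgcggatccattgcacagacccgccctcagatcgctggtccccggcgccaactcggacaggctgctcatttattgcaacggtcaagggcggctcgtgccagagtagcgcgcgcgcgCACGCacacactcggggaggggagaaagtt
Adamts14 (chr20:29762633-29762932, minus strand): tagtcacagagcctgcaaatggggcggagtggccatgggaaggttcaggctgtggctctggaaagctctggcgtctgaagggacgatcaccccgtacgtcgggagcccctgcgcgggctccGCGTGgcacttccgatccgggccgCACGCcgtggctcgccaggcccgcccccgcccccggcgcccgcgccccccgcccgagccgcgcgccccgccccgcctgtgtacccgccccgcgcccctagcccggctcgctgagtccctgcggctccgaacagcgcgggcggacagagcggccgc
Adamts4 (chr13:86202761-86203060, plus strand): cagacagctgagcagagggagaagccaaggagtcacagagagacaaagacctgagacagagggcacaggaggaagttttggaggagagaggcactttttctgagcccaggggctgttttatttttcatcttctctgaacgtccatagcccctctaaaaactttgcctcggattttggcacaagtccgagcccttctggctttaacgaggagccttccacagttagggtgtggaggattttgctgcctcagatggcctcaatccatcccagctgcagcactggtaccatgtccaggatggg

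Of the 59 genes, 41 had a promoter in the RefSeq table. GCGTG stood on either strand in 19 of the 41 (46.3%), in 46.7% of the 11736 promoters of tested genes and in 29.7% of all 33469 promoters of this length. Among the 9 called members with a promoter, 8 held it: Timp3, Adamtsl4 and Adam1a, which were higher, and Adam12, Adamts14, Adamts1, Adamtsl1 and Timp1, which were lower. Adamts4 was the one of these 9 without it. The called genes Mmp16 and Mmp19 had no promoter here and were not examined. Among members that were not called, 11 of 32 held it (34.4%), and among all called genes 42.8% of 1233 did. The median GC content was 65.0% in the called and 65.8% in the other members' promoters, and 60.0% over tested genes. The AP-1 motif TGANTCA, which shares no complete match with GCGTG, stood in 0 of the 9 called and 3 of the 32 other members, and in 5.34% of promoters of tested genes. At that share, 9 promoters are too few to tell 0 from the background. A match describes the letters in this window and says nothing of binding.

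Among the inhibitors, Timp3 was higher and Timp1 lower in the Ahr-KO lungs, while Timp2, Timp4 and Reck did not pass. Timp3, whose protein stays in the matrix and has the widest range of targets of the family, had 19365, 13726 and 13979.8 in the Ahr-KO libraries, against 3997, 5720.0 and 8946 in the WT libraries. All 3 Ahr-KO values lay above all 3 WT values, and within WT the value of library 2 lay well above that of library 0. The Timp3 means were 15690.4 ± 3185 in Ahr-KO and 6221 ± 2512 in WT (SD, n = 3 each), which is a log2 change of 1.39 ± 0.28 (limma adjusted p = 0.02). The call of Timp3 was lost without Ahr-KO library 1 (adjusted p = 0.057), Ahr-KO library 2 (0.074) or WT library 1 (0.057) and in limma without the trend (0.063), with changes of 1.11 to 1.77 over the 16 fits. Timp1, the secreted inhibitor that is often raised with inflammation and fibrosis, had 539, 505 and 554 in the Ahr-KO libraries, against 767, 803 and 975 in the WT libraries. The groups did not overlap, and the Ahr-KO values lay close together. With means of 533 ± 25.1 in Ahr-KO and 848 ± 111 in WT (SD, n = 3 each), Timp1 had a log2 change of -0.66 ± 0.12 (limma adjusted p = 0.015). Its call was lost without Ahr-KO library 1 (adjusted p = 0.062) or Ahr-KO library 2 (0.06).

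Timp2, which inhibits MMPs and is also needed by MMP14 to activate MMP2, had 6797, 6274 and 6615 in the Ahr-KO libraries, against 6539.7, 6478 and 6391 in the WT libraries. All 3 WT values lay within the range of the Ahr-KO values. For Timp2 this gives 6562 ± 266 in Ahr-KO and 6469.7 ± 74.5 in WT (SD, n = 3 each), a log2 change of 0.02 ± 0.08 (limma adjusted p = 0.9). Its 95% interval ran from -0.16 to 0.20. Timp4 had 71.7, 49.6 and 38.2 in the Ahr-KO libraries, against 54.98, 80.5 and 61.6 in the WT libraries, and Reck, which restrains MMP2, MMP9 and MMP14 at the cell surface, had 1617, 1388 and 1385 in the Ahr-KO libraries, against 1819, 1502 and 1445 in the WT libraries. Both sets of values overlapped between the groups. The change of Timp4 was -0.33 ± 0.29, adjusted p = 0.51 and that of Reck -0.12 ± 0.12, adjusted p = 0.57.

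The RefSeq annotation has Timp1, Timp3 and Timp4 overlap the spans of the synapsin genes Syn1, Syn3 and Syn2, and no source used here says whether reads were counted by strand. These partner genes were low: Syn3 had 10.5, 15.7 and 9.55 in the Ahr-KO libraries, against 9.0, 9.03 and 5.60 in the WT libraries. Syn1 had 15.3, 7.44 and 19.1 in the Ahr-KO libraries, against 27.0, 34.5 and 11.2 in the WT libraries. Their values are a small part of those of Timp3 and Timp1.

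The reads given to the TIMPs were shared out differently in the groups. The values are not per length, so these shares and ratios depend on transcript lengths and are set only between groups, not read as numbers of transcripts. Of the summed Timp1 to Timp4 value, Timp3 took up 72.3%, 66.8% and 66% in the Ahr-KO libraries, against 35.2%, 43.7% and 54.6% in the WT libraries. The share of Timp1 was 2.01%, 2.46% and 2.61% in the Ahr-KO libraries, against 6.75%, 6.14% and 5.95% in the WT libraries. The summed value of the 23 listed MMPs, divided by the summed value of the TIMPs, was 0.405, 0.464 and 0.488 in the Ahr-KO libraries, against 1.01, 0.958 and 0.659 in the WT libraries. Each of these shares and ratios separated the groups without overlap. All of them contain Timp3, whose own values did not overlap, so they are not independent of its call. The summed MMP value alone overlapped, at 9544 to 10854 in the Ahr-KO libraries and 10792 to 12530.5 in the WT libraries. The summed TIMP value did not overlap, at 20600 to 26800 in the Ahr-KO libraries and 11400 to 16400 in the WT libraries. The ratio of Mmp2 to Timp3 was 0.239, 0.219 and 0.236 in the Ahr-KO libraries, against 1.31, 0.96 and 0.566 in the WT libraries and that of Adam17 to Timp3 was 0.185, 0.263 and 0.253 in the Ahr-KO libraries, against 1.1, 0.814 and 0.445 in the WT libraries. These sums and ratios were chosen after the values were seen and are a description, without a test.

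**Figure D2:**
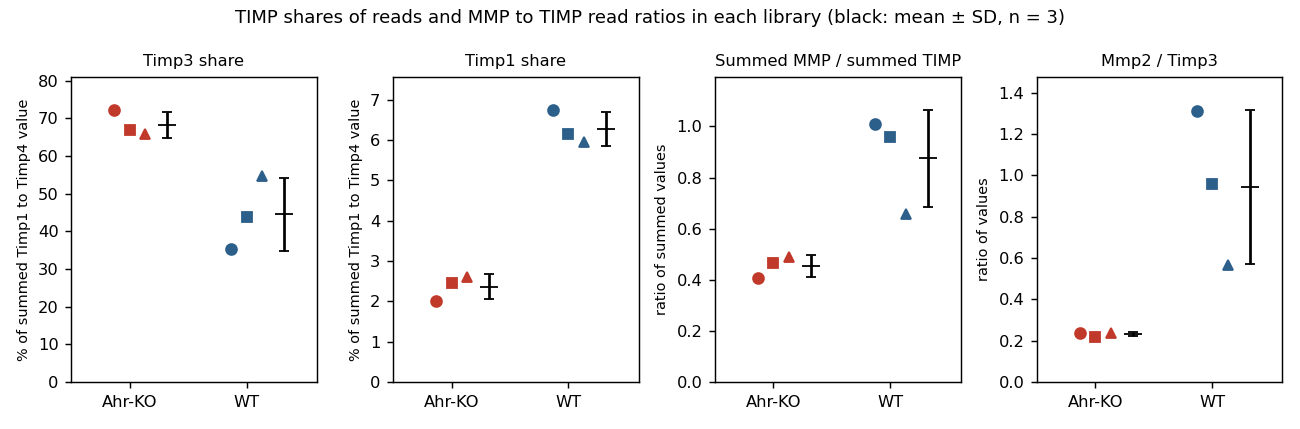
Share of Timp3 and of Timp1 in the summed TIMP value (percent) and ratios of the summed MMP to the summed TIMP value and of Mmp2 to Timp3, in each Ahr-KO (red) and WT (blue) library, with circles, squares and triangles for libraries 0, 1 and 2 and the mean ± SD in black. The Timp3 share is 66.0% to 72.3% in the Ahr-KO libraries and 35.2% to 54.6% in the WT libraries.

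In the MMP family, 10 of the 13 tested genes had a lower mean log2 value in the Ahr-KO lungs, against 7537 of all 15386 tested genes. Mmp16 and Mmp19 passed the test. Mmp16, a membrane-type MMP also called MT3-MMP, had 268, 237 and 235 in the Ahr-KO libraries, against 329.9, 354 and 369 in the WT libraries. Mmp16 averaged 247 ± 18.8 in Ahr-KO and 351 ± 19.9 in WT (SD, n = 3 each), a log2 change of -0.51 ± 0.12 (limma adjusted p = 0.041). Mmp19, a secreted MMP that cuts basement membrane proteins, had 249.8, 249 and 271 in the Ahr-KO libraries, against 328, 408 and 445 in the WT libraries. In both genes every Ahr-KO value lay below every WT value. The Mmp19 means were 257 ± 12.8 in Ahr-KO and 394 ± 59.8 in WT (SD, n = 3 each), which is a log2 change of -0.60 ± 0.15 (limma adjusted p = 0.039). Neither call was firm: that of Mmp16 was lost without any 1 library other than Ahr-KO library 0, after quantile normalisation (adjusted p = 0.062) and in limma without the trend (0.051), with the highest adjusted p at 0.13. That of Mmp19 was lost without any 1 library other than WT library 0 (highest adjusted p = 0.12), after quantile normalisation (0.055) and in limma without the trend (0.065).

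The gelatinases, which cut denatured collagen and type IV collagen of basement membranes, narrowly missed the threshold. Mmp2 had 4632, 3009 and 3305 in the Ahr-KO libraries, against 5238, 5492 and 5067 in the WT libraries. Mmp9, which leukocytes make in large amounts, had 43.5, 34.7 and 34.1 in the Ahr-KO libraries, against 81.97, 53.4 and 82.5 in the WT libraries. The groups did not overlap for either gene. With means of 3649 ± 864 in Ahr-KO and 5266 ± 214 in WT (SD, n = 3 each), Mmp2 had a log2 change of -0.55 ± 0.15 (limma adjusted p = 0.059). For Mmp9 this gives 37.4 ± 5.27 in Ahr-KO and 72.6 ± 16.7 in WT (SD, n = 3 each), a log2 change of -0.92 ± 0.26 (limma adjusted p = 0.06). Mmp14, the membrane-type MMP that activates the MMP2 precursor, had 1385, 1084 and 1292 in the Ahr-KO libraries, against 1535, 1753 and 1511 in the WT libraries. Mmp14 averaged 1254 ± 154 in Ahr-KO and 1599.9 ± 133 in WT (SD, n = 3 each), a log2 change of -0.36 ± 0.12 (limma adjusted p = 0.093). The groups of Mmp14 did not overlap either. With values rescaled to equal library totals, Mmp2 (adjusted p = 0.036), Mmp9 (0.045) and Mmp14 (0.044) passed too, so that 5 MMPs were called lower and 0 higher, but that scaling moved the median change of all genes to -0.08 and raised the lower calls over all genes to 1314. After quantile normalisation Mmp2 passed (0.04), Mmp9 (-0.63, adjusted p = 0.16) and Mmp14 (0.075) did not, and 1 MMP was called in all.

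Mmp15, another membrane-type enzyme, had the opposite sign, with 3599, 4278 and 4528 in the Ahr-KO libraries, against 3253, 3637 and 2535 in the WT libraries. The lowest Ahr-KO value lay just under the highest WT value. The Mmp15 means were 4135 ± 480.5 in Ahr-KO and 3142 ± 559.6 in WT (SD, n = 3 each), which is a log2 change of 0.41 ± 0.15 (limma adjusted p = 0.12). The macrophage elastase gene Mmp12 was low, with 8.87, 10.7 and 38.2 in the Ahr-KO libraries, against 29.99, 74.7 and 113 in the WT libraries. Its change was -1.96 ± 0.64, adjusted p = 0.09, and Ahr-KO library 2 lay above WT library 0. Mmp25, a membrane-type MMP of neutrophils, had 23.4, 7.44 and 6.82 in the Ahr-KO libraries, against 22.99, 19.7 and 33.6 in the WT libraries and a change of -1.14 ± 0.49, adjusted p = 0.18. The 2 Ahr-KO libraries numbered 1 and 2 lay below all WT values and library 0 among them. The neutrophil collagenase gene Mmp8 ran from 12.3 to 62.9 in the Ahr-KO libraries and from 10.7 to 31.99 in the WT libraries (adjusted p = 0.67). The remaining Mmp17, Mmp23 and Mmp24 did not pass, with changes of -0.35, -0.32 and -0.06. Mmp13, the collagenase known from cartilage, was near the limit of reading, between 0 and 2.42 in all 6 libraries.

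The macrophage marker list, whose cells make MMP12, had 5 of 14 tested genes lower (35.7%, against 6.26% of all tested genes) and 0 higher in the Ahr-KO lungs. Its summed level was 320383 to 413260 in the Ahr-KO libraries and 413616 to 523301 in the WT libraries, and Marco was listed at 0 in all 6. The neutrophil list had 1 of 9 lower (Fcnb), which is 11.1%, against 6.26% of all tested genes. Its changes were 6 positive and 3 negative, with a median of 0.17. The summed levels of the list were 869 to 1885 in the Ahr-KO libraries and 1153 to 1881 in the WT libraries. The part of these cells in the MMP values was not tested.

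Of the 10 MMPs below the minimum, Mmp1, Mmp1b, Mmp3, Mmp10 and Mmp20 were listed at 0 in all 6 libraries. These include the stromelysins Mmp3 and Mmp10 and the collagenases Mmp1 and Mmp1b, while the collagenases Mmp8 and Mmp13 were tested. Mmp7, Mmp21, Mmp27 and Mmp28 had at most 1.36 in any library. The gene nearest to the limit was Mmp11, with 5.0 and 1.64 in WT libraries 0 and 1, 0 in WT library 2, and 0.806, 0 and 0 in the Ahr-KO libraries. Just inside it lay Adam2, Adam6, Adamts18 and Mmp13, each with a value of at least 1 in exactly 3 libraries. At these depths 1 read corresponds to a value of 0.806 to 1.4, so such values rest on a few reads.

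In the ADAM family 10 changes were positive and 8 negative. Adam12 was lower, Adam1a was higher, and 16 of the 18 tested genes did not pass. Adam12, which mesenchymal cells make and which cuts IGF-binding proteins and releases HB-EGF, had 87.04, 87.6 and 102 in the Ahr-KO libraries, against 269, 369.6 and 218 in the WT libraries. The Ahr-KO values lay in a narrow band, far below the lowest WT value. With means of 92.3 ± 8.66 in Ahr-KO and 286 ± 77.03 in WT (SD, n = 3 each), Adam12 had a log2 change of -1.59 ± 0.22 (limma adjusted p = 0.0071). The smallest change over the 16 other fits was -1.39 and the largest in size -1.84, with an adjusted p of at most 0.035. The fibroblast marker list had 4 of 13 genes lower (Col1a1, Col14a1, Fbln1 and Pi16) and 0 higher. The lower calls were 30.8% of the list, against 6.26% of all tested genes. The summed level of the list was 23116 to 28946 in the Ahr-KO libraries and 32560 to 40391 in the WT libraries. The part of this list in the Adam12 result was not tested.

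Adam1a, a gene of the fertilin alpha type, had 361, 251 and 316 in the Ahr-KO libraries, against 196, 179 and 196 in the WT libraries. For Adam1a this gives 309.6 ± 55.2 in Ahr-KO and 190.3 ± 9.73 in WT (SD, n = 3 each), a log2 change of 0.68 ± 0.16 (limma adjusted p = 0.038). The call was lost without Ahr-KO library 0 or 2 or WT library 0 or 1 (highest adjusted p = 0.13), in limma without the trend (0.061) and with equal library totals (0.054). Adam4l1, a relative of Adam4, had 86.2, 68.6 and 84.6 in the Ahr-KO libraries, against 55.98, 51.7 and 36.4 in the WT libraries and did not pass, at 0.74 ± 0.24, adjusted p = 0.093. The values of Adam4l1 did not overlap between the groups. Adam4 and Adam4l1 are close relatives whose reads may have been shared, and both overlap the annotated span of Cox16, so their single levels are uncertain.

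The sheddases that release growth factors and cytokine receptors, Adam17 and Adam10, were not called. Adam17, also known as TACE, had 3582, 3612 and 3536 in the Ahr-KO libraries, against 4399, 4657 and 3983 in the WT libraries. All Ahr-KO values lay below all WT values, but the difference was small. Adam17 averaged 3577 ± 38.5 in Ahr-KO and 4346 ± 340.5 in WT (SD, n = 3 each), a log2 change of -0.28 ± 0.09 (limma adjusted p = 0.082). Adam17 did pass in 3 of the other fits: without WT library 2 (-0.34, adjusted p = 0.033), after rescaling to equal library totals (-0.37, 0.036) and after quantile normalisation (-0.36, 0.041). Adam10 had 2365, 1909.9 and 1932 in the Ahr-KO libraries, against 2013, 2069.5 and 2591 in the WT libraries, with a change of -0.10 ± 0.13, adjusted p = 0.66. Adam10, which starts the cleavage of Notch, overlapped between the groups. Adam15, a disintegrin of endothelium and epithelium, had 3408, 3309.9 and 2907 in the Ahr-KO libraries, against 2764, 2890.0 and 2886 in the WT libraries. The Adam15 means were 3208 ± 265 in Ahr-KO and 2847 ± 71.6 in WT (SD, n = 3 each), which is a log2 change of 0.17 ± 0.09 (limma adjusted p = 0.26). Adam19 had 2336, 3286 and 3721 in the Ahr-KO libraries, against 3276, 2148 and 3849.7 in the WT libraries, and its groups overlapped in full (0.03 ± 0.24, adjusted p = 0.96). Adam9 and Adam8, the second of which is rich in leukocytes, had changes of 0.06 and -0.35, and Adam33, a gene linked to asthma, of 0.27. None of these 3 passed, nor did the testis genes Adam2, Adam6 and Adam32, which had at most 3.0 in any library.

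The ADAMs of nerve cells that lack the catalytic site, Adam11, Adam22 and Adam23, were read at 0 to 20.5 in the 6 libraries. Adam22 had 3.22, 2.48 and 0 in the Ahr-KO libraries, against 5.0, 2.46 and 6.99 in the WT libraries, a change of -1.17 ± 0.67, adjusted p = 0.3. Adam28, a lymphocyte ADAM, had 11.3, 23.97 and 13.6 in the Ahr-KO libraries, against 17.99, 22.99 and 51.8 in the WT libraries, and its change was -0.81 ± 0.46, adjusted p = 0.3. Of the T, NK and B cell markers 15 of 16 were lower (93.8%, against 6.26% of all tested genes). Their summed levels were 2025 to 2726 in the Ahr-KO libraries and 4822 to 5908 in the WT libraries, and their part in the Adam28 values was not tested. The 9 ADAMs below the minimum included Adam7, Adam24, Adam26a, Adam34 and Adam34l, all listed at 0, and the other 4 had at most 1.4. Most of these are known from the testis.

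The ADAMTS genes are ordered here by the substrates known for them. The proteoglycanase subclass, which cuts versican and aggrecan, had 7 tested members and all 7 changes were negative, from -2.03 to -0.04, but only 2 passed. Of all 15386 tested genes, 7537 had a negative change. Adamts4 had 17.7, 14.9 and 13.6 in the Ahr-KO libraries, against 79.97, 86.2 and 40.6 in the WT libraries. Every Ahr-KO value lay far below every WT value. With means of 15.4 ± 2.10 in Ahr-KO and 68.9 ± 24.8 in WT (SD, n = 3 each), Adamts4 had a log2 change of -2.03 ± 0.34 (limma adjusted p = 0.013). Its call was lost without Ahr-KO library 2 (adjusted p = 0.062). Adamts1 had 1428, 1517 and 1489.7 in the Ahr-KO libraries, against 2928, 2076 and 2129 in the WT libraries, with WT library 0 above the rest. For Adamts1 this gives 1478 ± 45.3 in Ahr-KO and 2378 ± 477 in WT (SD, n = 3 each), a log2 change of -0.67 ± 0.14 (limma adjusted p = 0.023). The Adamts1 call was lost when Ahr-KO library 0, 1 or 2 was left out (adjusted p up to 0.087) and in limma without the trend (0.067).

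Adamts5, the other main aggrecanase, had 87.04, 64.5 and 90.03 in the Ahr-KO libraries, against 131, 100.2 and 143 in the WT libraries. The groups did not overlap, although the gene did not pass. Adamts5 averaged 80.5 ± 13.98 in Ahr-KO and 125 ± 21.9 in WT (SD, n = 3 each), a log2 change of -0.62 ± 0.22 (limma adjusted p = 0.11). Adamts20 was near the limit of reading, with 2.42, 1.65 and 1.36 in the Ahr-KO libraries, against 8.0, 7.39 and 4.20 in the WT libraries. Its groups did not overlap, at -1.40 ± 0.45, adjusted p = 0.087. Adamts9, a proteoglycanase of vessels, had 811, 663 and 501 in the Ahr-KO libraries, against 743, 2716 and 811 in the WT libraries. WT library 1 stood far above the other 5 libraries. The change was -0.87 ± 0.46, adjusted p = 0.26, and it was -0.27 without it. Adamts15 had 2382, 2412 and 3054 in the Ahr-KO libraries, against 3693, 2603 and 2082 in the WT libraries and Adamts8, an enzyme of lung, had 853 to 1288 in the Ahr-KO libraries and 1019.8 to 1219 in the WT libraries. The groups overlapped for both genes and neither passed, with changes of -0.06 and -0.04.

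The procollagen N-proteinases, which trim fibrillar procollagens, split. Adamts14 had 101, 77.7 and 127 in the Ahr-KO libraries, against 261, 266 and 208 in the WT libraries. The groups did not overlap, and the call held in all 16 other fits. The Adamts14 means were 102 ± 24.6 in Ahr-KO and 245 ± 31.9 in WT (SD, n = 3 each), which is a log2 change of -1.28 ± 0.22 (limma adjusted p = 0.013). Adamts2, the main enzyme of the subclass in skin, had 954, 817 and 969 in the Ahr-KO libraries, against 953, 1094 and 1079 in the WT libraries. It did not pass, with -0.19 ± 0.11, adjusted p = 0.29. Adamts3, which acts on the lymphatic growth factor VEGFC, was low with 22.6, 14.05 and 17.7 in the Ahr-KO libraries, against 11, 9.03 and 13.99 in the WT libraries. Its change had the opposite sign to that of Adamts14, at 0.63 ± 0.34, adjusted p = 0.27, and did not pass.

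Of the enzymes linked to fibrillin microfibrils, Adamts10 had 4098, 5160.3 and 6291 in the Ahr-KO libraries, against 3985, 3921 and 3543 in the WT libraries, all Ahr-KO values above all WT values (0.42 ± 0.15, adjusted p = 0.12). Adamts6, its close relative, had 199, 254 and 276 in the Ahr-KO libraries, against 318, 314 and 455 in the WT libraries, all below (-0.57 ± 0.19, adjusted p = 0.1). Neither passed, nor did Adamts17 (-0.43) and Adamts19 (-0.37). The entry for the protease that cuts von Willebrand factor, Adamts13, was deposited together with its neighbour Cacfd1, so its reads cannot be assigned. The joint entry had 227, 411 and 226 in the Ahr-KO libraries, against 725, 457 and 409.9 in the WT libraries and a change of -0.89 ± 0.29, adjusted p = 0.09. Adamts7 and Adamts12, which cut cartilage oligomeric matrix protein, had changes of -0.41 and 0.21 (adjusted p = 0.22 and 0.21). Adamts18 had 0.806, 0 and 4.09 in the Ahr-KO libraries, against 0.9996, 4.11 and 6.99 in the WT libraries, and its groups overlapped (-1.05 ± 0.78, adjusted p = 0.42). Adamts16 was below the minimum, with at most 1.36.

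The ADAMTS-like proteins resemble ADAMTS proteases without the protease part and sit in the microfibrils of the matrix. Adamtsl4, which binds fibrillin-1 and is mutated in displaced lenses of the eye, had 2406, 2424 and 2895 in the Ahr-KO libraries, against 1494, 1324 and 1018 in the WT libraries. Its Ahr-KO values were all above its WT values, and the call held in all 16 other fits. With means of 2575 ± 277 in Ahr-KO and 1279 ± 241 in WT (SD, n = 3 each), Adamtsl4 had a log2 change of 1.02 ± 0.15 (limma adjusted p = 0.0092). Adamtsl1 had 109.6, 104 and 101 in the Ahr-KO libraries, against 174, 165 and 178 in the WT libraries. Both groups were narrow and did not overlap. For Adamtsl1 this gives 105 ± 4.38 in Ahr-KO and 172 ± 6.47 in WT (SD, n = 3 each), a log2 change of -0.71 ± 0.15 (limma adjusted p = 0.025). The Adamtsl1 call was lost without Ahr-KO library 1 or 2 or WT library 0 or 1 (highest adjusted p = 0.088) and after quantile normalisation (0.057). Adamtsl3 had 525, 468 and 497 in the Ahr-KO libraries, against 703, 682 and 547 in the WT libraries, lower in all 3 Ahr-KO libraries (-0.37 ± 0.13, adjusted p = 0.11). Adamtsl2, which binds the latent TGF-beta complex, and Adamtsl5 did not pass, with changes of 0.47 and -0.12.

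**Figure D3:**
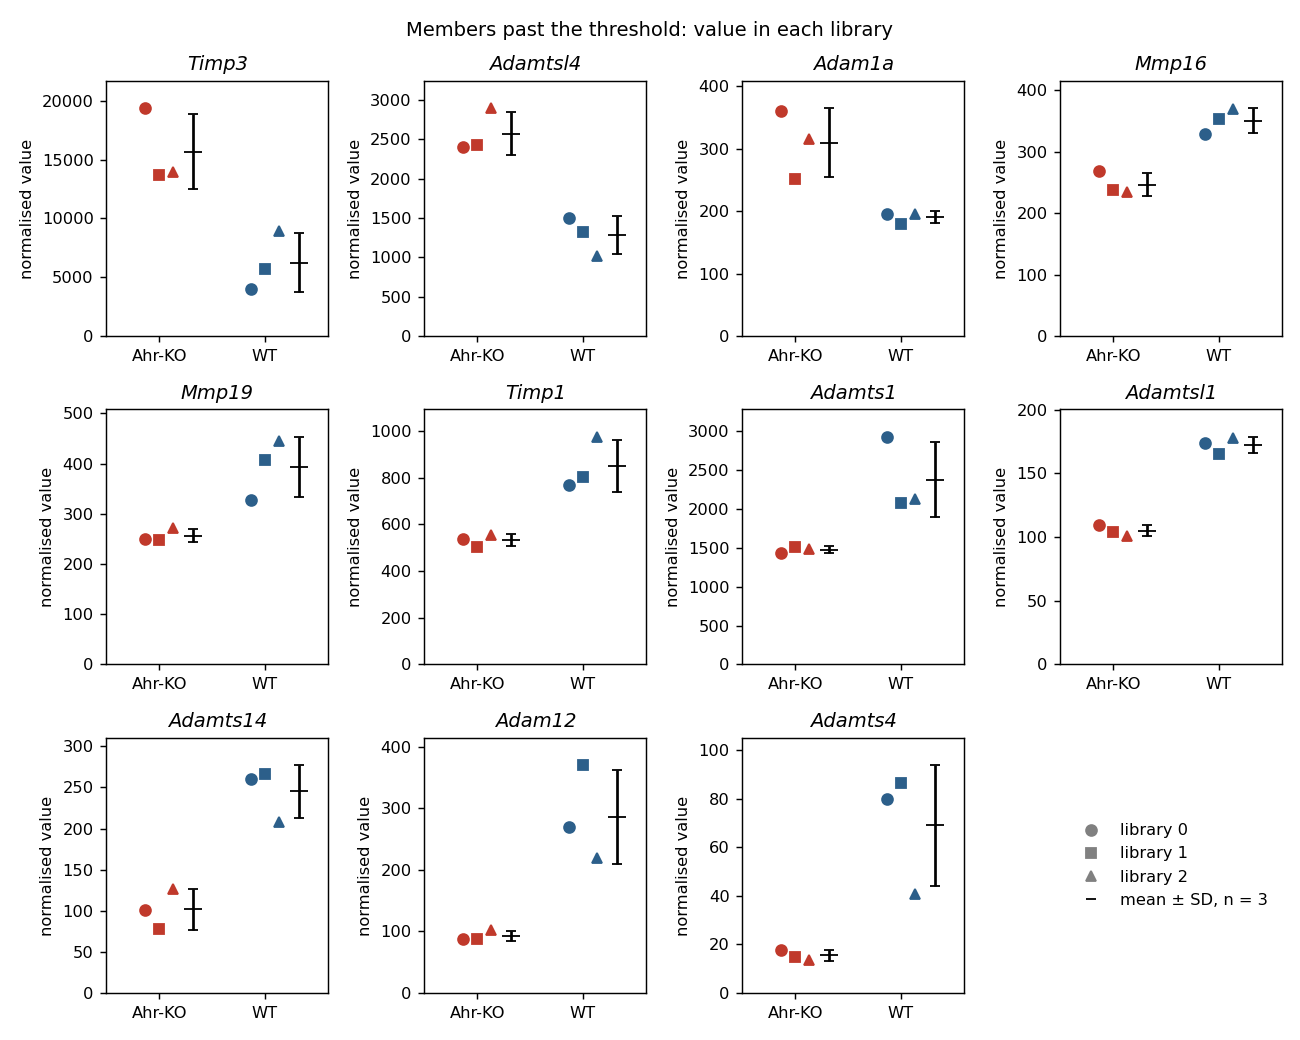
Normalised value (vertical axis, from 0) of the 11 called genes in each Ahr-KO (red) and WT (blue) library, with circles, squares and triangles for libraries 0, 1 and 2 and the mean ± SD in black. The groups do not overlap in any of the 11 panels, from Timp3 (13726 to 19365 in Ahr-KO, 3997 to 8946 in WT) to Adamts4 (13.6 to 17.7 in Ahr-KO, 40.6 to 86.2 in WT). These genes were chosen by the test on the same values, and 34.3% of all tested genes did not overlap.

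Genes of the plasmin system act with these proteases, since plasmin activates several MMP precursors. Plau, the gene of urokinase, which makes plasmin, had 1137, 1500.0 and 1394 in the Ahr-KO libraries, against 762, 857 and 590.3 in the WT libraries. All Ahr-KO values lay above all WT values. Plau averaged 1344 ± 187 in Ahr-KO and 736 ± 135 in WT (SD, n = 3 each), a log2 change of 0.87 ± 0.16 (limma adjusted p = 0.017). Serpine2, an inhibitor of thrombin and urokinase, was lower (-1.05 ± 0.17, adjusted p = 0.011). Of the 9 genes of this list that are reported, these were the calls, 1 higher and 1 lower, and the median change was -0.07. That is 22.2% of the 9, against 10.8% of all tested genes. Plat, the gene of the tissue activator, and the urokinase receptor gene Plaur did not pass, with changes of -0.07 and -0.54. The call of Plau was lost without Ahr-KO library 1 (adjusted p = 0.064) or 2 (0.077).

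Of 14 tested inhibitors of other proteases, Serpina1 was higher and Slpi lower, and the median change was 0.02. The 2 calls were 14.3% of the list, against 10.8% of all tested genes. Serpina1, the alpha-1 antitrypsin that shields lung elastin from neutrophil elastase, had 1465, 1176 and 1236 in the Ahr-KO libraries, against 296, 298 and 225 in the WT libraries. The Serpina1 means were 1292 ± 153 in Ahr-KO and 273 ± 41.5 in WT (SD, n = 3 each), which is a log2 change of 2.24 ± 0.15 (limma adjusted p = 0.00057). Slpi, an elastase inhibitor of airway secretions, had 28.2, 11.6 and 12.3 in the Ahr-KO libraries, against 142, 184 and 246 in the WT libraries. With means of 17.4 ± 9.41 in Ahr-KO and 191 ± 52.5 in WT (SD, n = 3 each), Slpi had a log2 change of -3.46 ± 0.38 (limma adjusted p = 0.004). These 2 elastase inhibitors moved in opposite directions, and neither set of values overlapped. The airway ciliated and secretory marker list had 6 of 14 genes lower, Scgb3a1 and Bpifa1 among them, and 1 higher. The share called was 50%, against 10.8% of all tested genes. The list had summed levels of 185240 to 297059 in the Ahr-KO libraries and 190359 to 235663 in the WT libraries, and its part in the Slpi values was not tested.

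Among 22 tested cathepsins and other matrix proteases, Bmp1 and Prss12 were higher, Ctsz and Fap were lower, and the median change was -0.21. The share called was 18.2%, against 10.8% of all tested genes. Bmp1, the procollagen C-proteinase, had 5703, 6236 and 8087 in the Ahr-KO libraries, against 4132, 4521 and 3799 in the WT libraries (0.67 ± 0.14, adjusted p = 0.024). Fap, a protease of activated fibroblasts, had 0.806, 1.65 and 0 in the Ahr-KO libraries, against 6.0, 11.5 and 29.4 in the WT libraries (-3.04 ± 0.65, adjusted p = 0.027). Fap met the filter through its WT values, and its Ahr-KO values rest on a few reads at most. The size of its change is therefore uncertain. All 4 calls were lost in at least 1 fit without a library. Of the 15 activators and inducers of MMPs, Tnc, the matrix protein tenascin-C, was the only one called (-0.97 ± 0.19, adjusted p = 0.02; lost without Ahr-KO library 1 or WT library 0), and Furin, which removes the propeptide of membrane-type MMPs and ADAMs, had a change of 0.10. The 1 call was 6.67% of these 15 genes, under the 10.8% of all tested genes.

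For ADAM10 and ADAM17, 1 of 11 trafficking partners was higher: Tspan15, a tetraspanin that escorts ADAM10 (0.45 ± 0.09, adjusted p = 0.021). That is 9.09% of the partners, under the 10.8% called over all tested genes. The iRhoms Rhbdf1 and Rhbdf2, which bring ADAM17 to the surface, had changes of 0.53 and 0.29 and did not pass. Of 26 tested substrates of the sheddases, 2 were higher and 4 lower, with a median change of 0.18. The calls were 23.1% of the 26, against 10.8% of all tested genes. Tgfa, a ligand of the EGF receptor, had 716, 640.5 and 619 in the Ahr-KO libraries, against 371, 346 and 371 in the WT libraries. For Tgfa this gives 658 ± 50.6 in Ahr-KO and 362 ± 14.5 in WT (SD, n = 3 each), a log2 change of 0.86 ± 0.11 (limma adjusted p = 0.0058). The other higher gene was Sdc1, the syndecan of epithelium (0.44 ± 0.10, adjusted p = 0.03). Lower were the adhesion receptor Vcam1 (-1.21 ± 0.17, adjusted p = 0.0083), the TNF receptors Tnfrsf1b (-0.98 ± 0.18, adjusted p = 0.016) and Tnfrsf1a (-0.35 ± 0.09, adjusted p = 0.048), and the IgE receptor Fcer2 (-1.63 ± 0.25, adjusted p = 0.011). Beside these, 15 of 16 T, NK and B cell markers and 5 of 14 macrophage and monocyte markers were lower, and their part in the values of the shed substrates was not tested. The 2 TNF receptor calls and that of Sdc1 were each lost in at least 1 fit without a library.

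Of 20 tested matrix proteins that these enzymes cut, 6 were lower and 1 higher, and the median change was -0.55. The 7 calls were 35% of the list, against 10.8% of all tested genes. The fibroblast markers, which share Col1a1, Col1a2 and Dcn with this list, had 4 of 13 lower and a median change of -0.71, with the summed levels given beside Adam12, and their part in these values was not tested. The proteoglycan Bgn had 7966, 6911 and 8178 in the Ahr-KO libraries, against 17435, 15981 and 17024 in the WT libraries. Bgn averaged 7685 ± 679 in Ahr-KO and 16814 ± 749 in WT (SD, n = 3 each), a log2 change of -1.13 ± 0.10 (limma adjusted p = 0.0025). Col1a1, a chain of type I collagen and a substrate of the procollagen proteinases, had 4073, 3474 and 3371 in the Ahr-KO libraries, against 10512, 10281 and 7727 in the WT libraries (-1.38 ± 0.14, adjusted p = 0.0034). Fn1 (fibronectin), Col3a1, Fbn1 and Nid1 were the others called lower, with changes of -1.14, -0.65, -0.61 and -0.49, each lost in at least 1 fit without a library. Hspg2 (perlecan), the proteoglycan of basement membranes, was higher with 9047, 8526 and 10771 in the Ahr-KO libraries, against 4874, 5329 and 4813 in the WT libraries. The Hspg2 means were 9448 ± 1175 in Ahr-KO and 5006 ± 282 in WT (SD, n = 3 each), which is a log2 change of 0.91 ± 0.11 (limma adjusted p = 0.0054). Versican (Vcan), the substrate of the ADAMTS proteoglycanases, did not pass (-0.84 ± 0.23, adjusted p = 0.053), and von Willebrand factor (Vwf) had a change of -0.08.

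**Figure D4:**
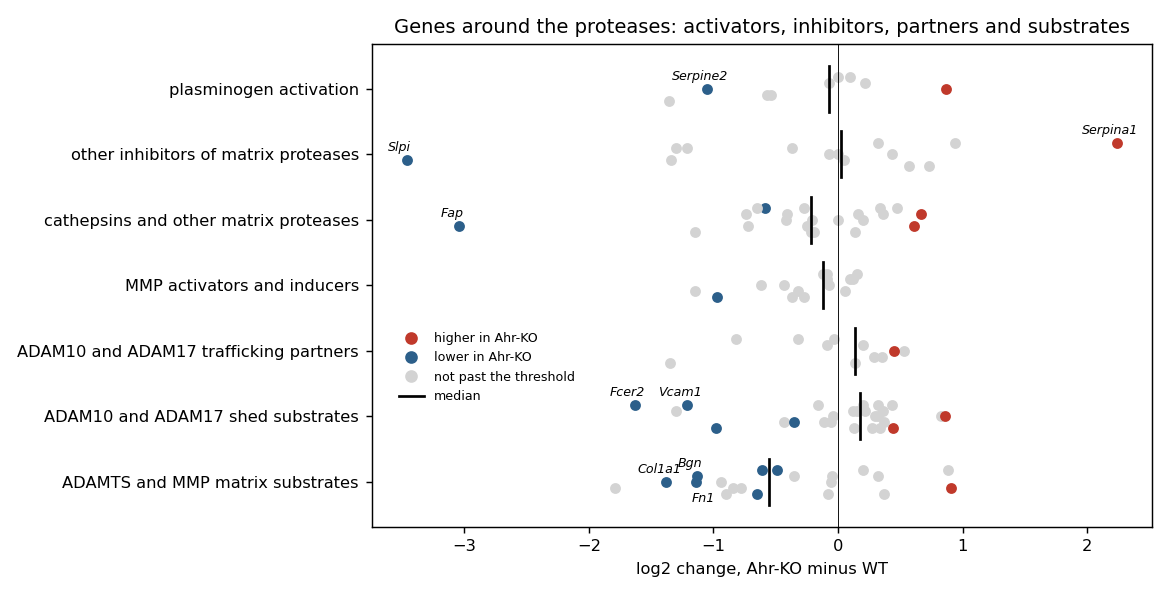
Change (difference of log2(value + 1), Ahr-KO minus WT) of each tested gene in 7 lists of genes that act with the proteases, with the list's median as a black bar. Red points are higher and blue points lower in Ahr-KO at an adjusted p under 0.05. Slpi at -3.46, Fap at -3.04 and Serpina1 at 2.24 lie farthest from 0 among the called genes. The Ahr-KO values of Fap rest on a few reads at most.

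Markers of other cell types moved as follows. Over all tested genes, 4.50% were called higher and 6.26% lower. Among the 10 lung epithelial markers, Hopx, Rtkn2 and Ager, which mark alveolar type 1 cells, were higher and 0 were lower. Among 10 genes of dividing cells 4 were lower, and among 8 mast cell genes Kit was higher and Cpa3 and Ms4a2 were lower. Of 12 endothelial markers Tek and Pecam1 were higher and Emcn and Plvap lower. Of 7 mesothelial markers Krt19, which airway epithelium also makes, was higher. Krt19 was the 1 positive change of that list, with 6 negative and a median change of -0.34. Limma called 0 of 9 smooth muscle markers (4 at an unadjusted p under 0.05), 0 of 8 red blood cell genes (4) and 0 of 9 striated muscle genes (0). The part of any of these lists in the protease and inhibitor values was not tested.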

How the data were processed

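Bulk RNA-seq of lung was deposited as 1 table of values per gene symbol for 6 libraries, 3 Ahr-KO and 3 WT. The deposited values are a normalised signal, estimated read counts scaled between libraries by the authors, as read from the values themselves. The submitters' processing notes name the build rn6 and FastQC. The aligner, the counter, the normalisation and the use of strand are not stated in the sources used here. In each library 97.5% to 98% of the values were whole multiples of 1 step (tolerance 0.05 of a step), and the step gave the estimated depth of 12.9 to 23.6 M reads. Columns show the genotype and a number, and a column was tied to its genotype only.

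Symbols of the families were matched in the table, with 229 entries that hold several symbols and 2 repeated ones. Genes that reached a value of 1 in 3 or more libraries were tested with limma 3.58.1 in R 4.3.3 on log2(value + 1), with a mean-variance trend, 2-sided, at a Benjamini-Hochberg adjusted p under 0.05. Because the deposited values are not raw counts, no count test was used. With 3 libraries against 3, an exact permutation test of 1 gene cannot give a p below 0.1. The procedure was tested on simulated data. The members, lists and tests were chosen with earlier results of these data known. Called genes, the 3 highest of each family, all TIMPs and Reck, and uncalled genes with a change of at least 1 in size are given by library, and other members as changes or ranges, with a few by library chosen after their values were seen. Promoters and neighbouring genes came from RefSeq on GRCr8, whose coordinates were not mixed with the table. Protein sequences were not used here, and some genes that were tested are not reported here. The alternatives were another pseudocount, other filters, quantile normalisation, equal library totals, limma without a trend, robust limma, limma-voom on estimated reads, the library number as a block, and leaving out libraries.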

Additional observations from a re-analysis of the deposited data

How the results depend on the processing

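The 11 called family members were 7 in limma without the trend, 6 without both libraries numbered 2, 19 at an adjusted p under 0.10, 5 with a fold of at least 2, and 3 to 11 when 1 library was left out. The 2 MMP calls were 1 after quantile normalisation, 5 with equal library totals, 0 in limma without the trend, 0 without both libraries numbered 2, 6 at an adjusted p under 0.10, 0 with a fold of at least 2, and 0 to 3 with 1 library left out. The 2 calls among TIMPs and Reck were 1 without the trend, 1 with a fold of at least 2, and 0 to 2 with 1 library left out. The 2 ADAM calls were 4 after quantile normalisation, 1 without the trend, 1 without both libraries numbered 2, 4 at an adjusted p under 0.10, 1 with a fold of at least 2, and 1 to 3 with 1 library left out. The 5 ADAMTS and ADAMTSL calls were 3 without both libraries numbered 2, 3 with a fold of at least 2, and 2 to 6 with 1 library left out. The 23 calls in the 7 other gene lists were 12 without the trend, 10 without both libraries numbered 2, 38 at an adjusted p under 0.10, 9 with a fold of at least 2, and 9 to 27 with 1 library left out. Of all genes, 1655 were called, against 952 without the trend, 553 without both libraries numbered 2, 2853 at an adjusted p under 0.10, 676 with a fold of at least 2, and 407 to 1834 with 1 library left out. With 1 library left out, the median change ranged over -0.50 to -0.29 for MMPs, -0.19 to -0.01 for TIMPs and Reck, -0.06 to 0.17 for ADAMs and -0.50 to -0.29 for ADAMTS and ADAMTSL genes. Library numbers did not pair the samples: deviations of same-numbered libraries correlated at -0.1, 0.07 and -0.07. A block for the library number left 6 members called (1 MMP, 1 among TIMPs and Reck, 1 ADAM, 3 ADAMTS or ADAMTSL genes) and 899 of all genes. With that block Mmp12, not called in the reported fit, passed (adjusted p = 0.034). The calls lost with it were those of Timp3 (adjusted p = 0.051), Adamts1 (0.052), Adam1a (0.063), Mmp19 (0.07), Adamtsl1 (0.074) and Mmp16 (0.11), and 5 of these were also lost without both libraries numbered 2: Adamts1 (0.078), Adamtsl1 (0.089), Mmp19 (0.11), Mmp16 (0.13) and Adam1a (0.13). Of 920 member values under these alternatives, 893 kept the sign of the reported value, and 10 uncalled members passed in at least 1. The cause of these differences was not tested, beyond the smaller number of samples where libraries were left out. Genes with values of a few reads, 8 tested members with a mean below 10, are limited by depth.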
